A study of Mus musculus with 5 samples.

Results

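The Bar, Tlx, Lbx and Hmx genes are homeobox genes of the NK-like kind, and 10 of them were described here: Barhl1, Barhl2, Barx1, Barx2, Tlx1, Tlx2, Tlx3, Lbx1, Hmx2 and Hmx3. They were chosen by name in the mm9 GENCODE vM1 annotation, from 22350 protein-coding genes on chromosomes 1 to 19 and X, and all 10 were found. Tlx1 and Lbx1 lie beside each other, as do Hmx2 and Hmx3, so that the genes occupy 8 loci. H3K27me3 was profiled by ChIP-Seq in mouse embryonic fibroblasts (MEFs) from a mid-gestation embryo with loxP sites around part of Eed, which encodes a subunit of Polycomb Repressive Complex 2 (PRC2). All groups share this floxed background. Cells were transduced with a lentivirus carrying an EF1a promoter for stable expression of H3.3K27R, H3.3K27M or human EZHIP and selected with puromycin. H3.3K27M carries methionine and H3.3K27R arginine at the residue that PRC2 methylates, EZHIP is a PRC2 inhibitor expressed in PFA ependymoma, and the K27R cells serve as the reference here. The series holds 5 H3K27me3 libraries with 1 per group. The Eed deletion line, which is a single clone, and the untransduced parental cells were not analysed here.

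Homeobox genes encode transcription factors that set cell fates in the embryo. In cells where such a gene is silent, PRC2 trimethylates H3K27 over it, often in a broad domain that starts from a CG-rich stretch of DNA called a CpG island. The 10 genes act mainly in sensory neurons, inner ear, dorsal spinal cord and a few organ primordia, and fibroblasts are not where most of them are known to work. Of 12 fibroblast marker genes, 11 had their start site outside K27R peaks and the exception was Pdgfra. Of the other marker genes, the start site lay in a K27R peak for 2 of 4 epithelial, 3 of 4 endothelial, 2 of 3 blood and 3 of 4 neural genes. Over all protein-coding genes the share was 30.1%, and these marker sets are small. These positions show where the mark was called and do not measure expression.

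The K27R list holds 12845 peaks, the K27M list 3736 and the EZHIP list 4992. The lists give positions without read counts, so that depth is unknown, no value has a replicate, and no test was made. Differences between lists therefore describe these 3 libraries, and how far depth or the calling of peaks contributed was not tested. Covered lengths below are in kb of sequence inside peaks, and a start site is the 5′ end of the annotated gene.

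The DNA before the start sites is shown for the 4 genes whose RefSeq promoter has at least 150 bases outside annotated exons, because these bases lie inside peaks of all 3 lists and differ widely in CG content. Entries were found for 7 of the 10 genes. The sequences are RefSeq's (GRCm38.p6), were placed on mm9 by exact match, run 5′ to 3′ toward the start site and end where the annotated exon begins. Capitals mark CG dinucleotides.
Barhl1, chr2:28772189-28772438, minus strand: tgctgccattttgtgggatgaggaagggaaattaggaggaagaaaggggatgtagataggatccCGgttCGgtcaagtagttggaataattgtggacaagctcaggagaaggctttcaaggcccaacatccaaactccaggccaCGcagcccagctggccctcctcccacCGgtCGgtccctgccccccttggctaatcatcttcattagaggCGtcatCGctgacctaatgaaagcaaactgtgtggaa
Barx1, chr13:48758155-48758366, plus strand: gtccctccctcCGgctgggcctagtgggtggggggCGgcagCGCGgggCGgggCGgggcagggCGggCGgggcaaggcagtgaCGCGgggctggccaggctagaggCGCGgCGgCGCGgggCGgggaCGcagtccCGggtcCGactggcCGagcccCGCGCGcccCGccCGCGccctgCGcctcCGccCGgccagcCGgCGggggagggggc
Tlx3, chr11:33103589-33103838, minus strand: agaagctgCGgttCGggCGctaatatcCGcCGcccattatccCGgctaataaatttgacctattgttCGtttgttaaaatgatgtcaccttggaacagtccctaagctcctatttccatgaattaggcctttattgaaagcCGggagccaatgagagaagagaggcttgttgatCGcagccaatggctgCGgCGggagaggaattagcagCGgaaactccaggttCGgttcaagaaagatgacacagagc
Hmx3, chr7:138686227-138686380, plus strand: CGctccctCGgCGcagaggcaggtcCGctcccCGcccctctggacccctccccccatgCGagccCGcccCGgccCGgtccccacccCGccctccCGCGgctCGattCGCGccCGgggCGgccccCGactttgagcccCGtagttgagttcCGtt

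The 212 bases of Barx1 hold 31 CG dinucleotides and the 154 bases of Hmx3 hold 20. The 250 bases of Tlx3 hold 13 and those of Barhl1 only 7. Over the full promoter of 300 bases (250 before and 50 after the RefSeq start), the 7 genes with an entry had a median of 22 CG dinucleotides, against 7 over 32851 mouse promoters, and all 7 were above that median. The order ran from Barx1 with 50, Barhl2 with 42 and Hmx3 with 39 to Hmx2 with 22, Tlx3 with 18, Tlx1 with 16 and Barhl1 with 9. Their median G+C content was 67.7%, against 52.7% over all promoters. TAATTA, a core that many homeodomains can bind and that reads the same on both strands, was found in 1 of the 7 promoters (Barhl1), while 5.29% of all promoters hold it. The Barhl1 match lies in the 50 bases after the start, which are not shown above.

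For contrast, the next sequences come from the same 4 loci. Each is the 200-bp bin in the middle of the longest stretch that lies in the K27R region but in neither a K27M nor an EZHIP peak (mm9, plus strand), and the last is the middle of an EZHIP peak of 38.2 kb, also inside the K27M peak, that holds no island and lies upstream of Barhl1.
Barhl1, K27R peak only, chr2:28755801-28756000: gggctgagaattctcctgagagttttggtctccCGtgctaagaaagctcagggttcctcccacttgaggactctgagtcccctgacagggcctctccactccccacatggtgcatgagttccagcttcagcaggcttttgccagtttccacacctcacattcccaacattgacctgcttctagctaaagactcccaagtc
Barx1, K27R peak only, chr13:48886401-48886600: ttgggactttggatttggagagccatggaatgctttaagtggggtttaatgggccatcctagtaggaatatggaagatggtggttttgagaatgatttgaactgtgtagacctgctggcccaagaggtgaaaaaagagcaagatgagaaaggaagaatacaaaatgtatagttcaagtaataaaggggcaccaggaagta
Tlx3, K27R peak only, chr11:33114801-33115000: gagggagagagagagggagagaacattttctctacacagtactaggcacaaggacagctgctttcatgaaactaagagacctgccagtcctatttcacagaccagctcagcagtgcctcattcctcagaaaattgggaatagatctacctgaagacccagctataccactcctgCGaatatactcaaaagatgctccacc
Hmx2 and Hmx3, K27R peak only, chr7:138666801-138667000: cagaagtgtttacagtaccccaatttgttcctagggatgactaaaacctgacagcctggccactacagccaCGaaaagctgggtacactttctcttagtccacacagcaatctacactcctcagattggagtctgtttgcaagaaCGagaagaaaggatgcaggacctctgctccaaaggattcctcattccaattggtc
Barhl1, shared peak upstream, chr2:28868801-28869000: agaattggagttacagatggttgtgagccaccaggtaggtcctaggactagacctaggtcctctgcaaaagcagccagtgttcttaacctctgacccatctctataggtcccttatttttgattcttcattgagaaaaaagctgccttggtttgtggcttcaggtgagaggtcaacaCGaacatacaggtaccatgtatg

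These bins hold 1, 0, 1 and 2 CG dinucleotides, and the bin in the shared Barhl1 peak holds 1. So this 1 bin of the shared peak upstream of Barhl1 holds as many CG dinucleotides as the Barhl1 bin in the K27R peak only. These are single bins. Over all bins of the Barhl1 region, the mean was 3.05 in both K27M and EZHIP peaks and 1.95 in the K27R peak only.

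At the start site, all 10 genes lay in a peak of each list. Over all protein-coding genes this was so for 30.1% in the K27R list, 9.02% in the K27M list and 7.73% in the EZHIP list, and for 6.6% in all 3 lists at once. Among the 6735 genes with their start site in a K27R peak, 21.9% were also in both a K27M and an EZHIP peak, and 39.8% of those with a CpG island within 500 bp of the start. All annotated transcript starts of the 10 genes, up to 5 for Barhl1, were in peaks as well. The count was 10 in each list also with only peaks of at least 5 kb. Counted as loci, it was 8 of 8.

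The gene bodies of the 10 genes sum to 106.0 kb. K27R peaks covered all of this length, K27M peaks 53.5 kb (50.5%) and EZHIP peaks 44.1 kb (41.6%). All of the length outside K27M peaks lies in Barx2, the only long gene of the set, and the other 9 genes were covered from end to end. In the EZHIP list 8 were, and Barhl1 was covered over 8.19 of its 8.99 kb. Gene bodies covered from end to end were not counted over other genes. The distance from the gene body to the nearest peak was 0 for every gene in every list.

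Within 50 kb on each side of the start site, a window of 100 kb, K27R peaks covered a median of 75.6 kb, K27M peaks 50 kb and EZHIP peaks 37.6 kb over the 10 genes. Over the 1476 genes with the start site in all 3 lists, the medians were 81.6, 17.2 and 13.2 kb. In the K27R list the Bar, Tlx, Lbx and Hmx genes were therefore close to those genes, while in the K27M and EZHIP lists more of their surroundings was covered. K27M covered more than EZHIP around 10 of 10 genes, and around 73% of the 1476 genes. Over the union of the windows, K27M peaks covered 478.6 kb and EZHIP peaks 373.7 kb, a ratio of 1.28. Without the genes of one chromosome at a time, the ratio ran from 1.23 without chromosome 5 (Barhl2) to 1.39 without chromosome 19 (Tlx1 and Lbx1).

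**Figure D1:**
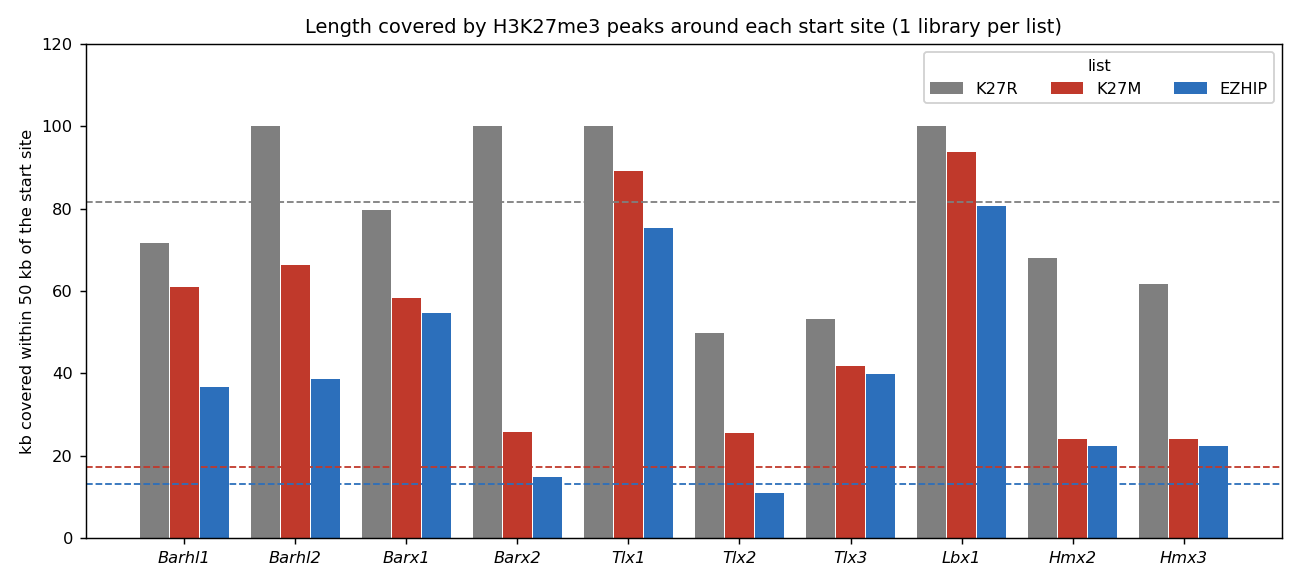
Length in kb covered by peaks within 50 kb of each start site, with 1 bar for each of the K27R, K27M and EZHIP lists (1 library each, no error). Dashed lines are the medians over the 1476 genes with the start site in all 3 lists (81.6, 17.2 and 13.2 kb); all K27M bars lie above the K27M line, and all EZHIP bars but that of Tlx2, at 11 kb, lie above the EZHIP line.

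Peaks at the start sites also differed in width. Over the 10 genes the K27R peak had a median width of 171.5 kb, the K27M peak 49.4 kb and the EZHIP peak 22.4 kb, against 134.1, 13.7 and 9.0 kb over the genes in all 3 lists. All 10 genes had a peak wider than these medians in both the K27M and the EZHIP list. As deposited, the K27M peak was the wider at 10 of 10 start sites, where Hmx2 and Hmx3 share their peaks. The median ratio of its width to that of the EZHIP peak was 1.70, against 1.42 over genes in all 3 lists. How often K27M was the wider over those genes was not counted. The count of 10 depends on where a list breaks a domain. The shortest gap between peaks was 5.2 kb in the K27M list and 1.2 kb in the EZHIP list. After peaks up to 10 kb apart were merged, which for the widths was chosen after seeing the data, K27M was the wider at 7 genes and EZHIP at 3: Lbx1 (162.8 against 124.2 kb), Barx1 (116.6 against 109.8 kb) and Tlx3 (42.2 against 41.8 kb). The medians were then 54.1 and 29.2 kb. Within 50 kb, K27M covered more around 9 genes after merging, with Tlx3 the exception, and around 66.0% of the genes in all 3 merged lists.

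**Figure D2:**
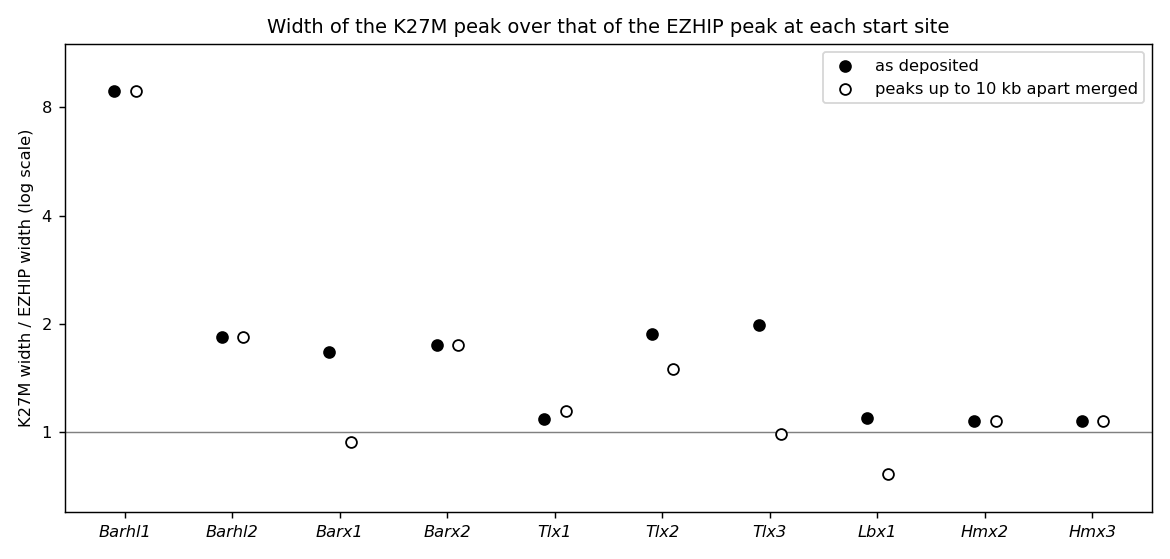
Width of the K27M peak divided by that of the EZHIP peak at each start site (log scale), for the peaks as deposited (filled) and with peaks up to 10 kb apart merged (open). Barhl1 stands at 8.91 under both; Barx1, Tlx3 and Lbx1 pass below 1 when peaks are merged. Hmx2 and Hmx3 share their peaks.

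Barhl1 and Barhl2 have roles in inner ear hair cells, cerebellum, retina and spinal cord. Barhl1 (ENSMUSG00000026805.7, chr2:28763199-28772188, minus strand) had a K27R peak of 164.0 kb at its start site, a K27M peak of 151.4 kb and an EZHIP peak of 17 kb. The K27M peak thus spanned 92.3% of the K27R region as 1 interval and reached 140.4 kb upstream of the start site. Its width exceeded that at 98.5% of the genes in all 3 lists. Over the same region EZHIP had 7 separate peaks, all inside the K27M peak, and together they covered 66.7% of it. The 6 that lie upstream of the start site hold no CpG island, and 5 of them lie over 1700101E01Rik. The farthest of them began 117.0 kb from the start site and was 17.2 kb wide.

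Barhl2 (ENSMUSG00000034384.9, chr5:106881533-106887469, minus strand) lies in the widest K27R region of the set, at 663.6 kb. K27M had a peak of 66.4 kb and EZHIP one of 36.0 kb at the start site, which was wider than at 92.8% and 90.2% of the genes in all 3 lists. Yet only 11.2% of the K27R region lay in K27M peaks and 5.82% in EZHIP peaks, the lowest shares of the 8 regions. A stretch of 510 kb of the K27R region had a peak in neither list. The only other peaks in the region were a K27M peak of 7.8 kb within Zfp644, a zinc finger gene, and an EZHIP peak of 2.6 kb.

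Barx1, which patterns stomach mesenchyme and molar teeth, and Barx2, known in muscle and in epithelial organs, differed from each other in how much was covered. Barx1 (ENSMUSG00000021381.4, chr13:48758367-48761876, plus strand) had peaks of 180.2 kb, 57.0 kb and 34.2 kb at its start site in the K27R, K27M and EZHIP lists. Within 50 kb, 58.2 kb lay in K27M peaks and 54.6 kb in EZHIP peaks. A second domain, 55.2 kb downstream of the start site, had a K27M peak of 40 kb and an EZHIP peak of 37.2 kb. It holds 2 CpG islands and no annotated gene. This K27M peak was the widest of the 6 in the 8 regions that lie away from the start sites of the 10 genes.

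Barx2 (ENSMUSG00000032033.10, chr9:31653682-31721047, minus strand) is 67.4 kb long and lay wholly in a K27R peak of 179.0 kb. K27M covered 14.8 kb of the gene (22.0%) and EZHIP 6.25 kb (9.27%), in both cases at its 5′ end. The peaks at the start site were 25.8 kb and 14.8 kb wide, and the region held no other K27M or EZHIP peak. Its next K27M peak was 336.6 kb away. The single island of the region, of 2385 bp, spans the start site. Barx1 and Barx2 had K27R peaks of similar width, but the K27M share was 54.5% in the region of Barx1 and 14.4% in that of Barx2.

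**Figure D3:**
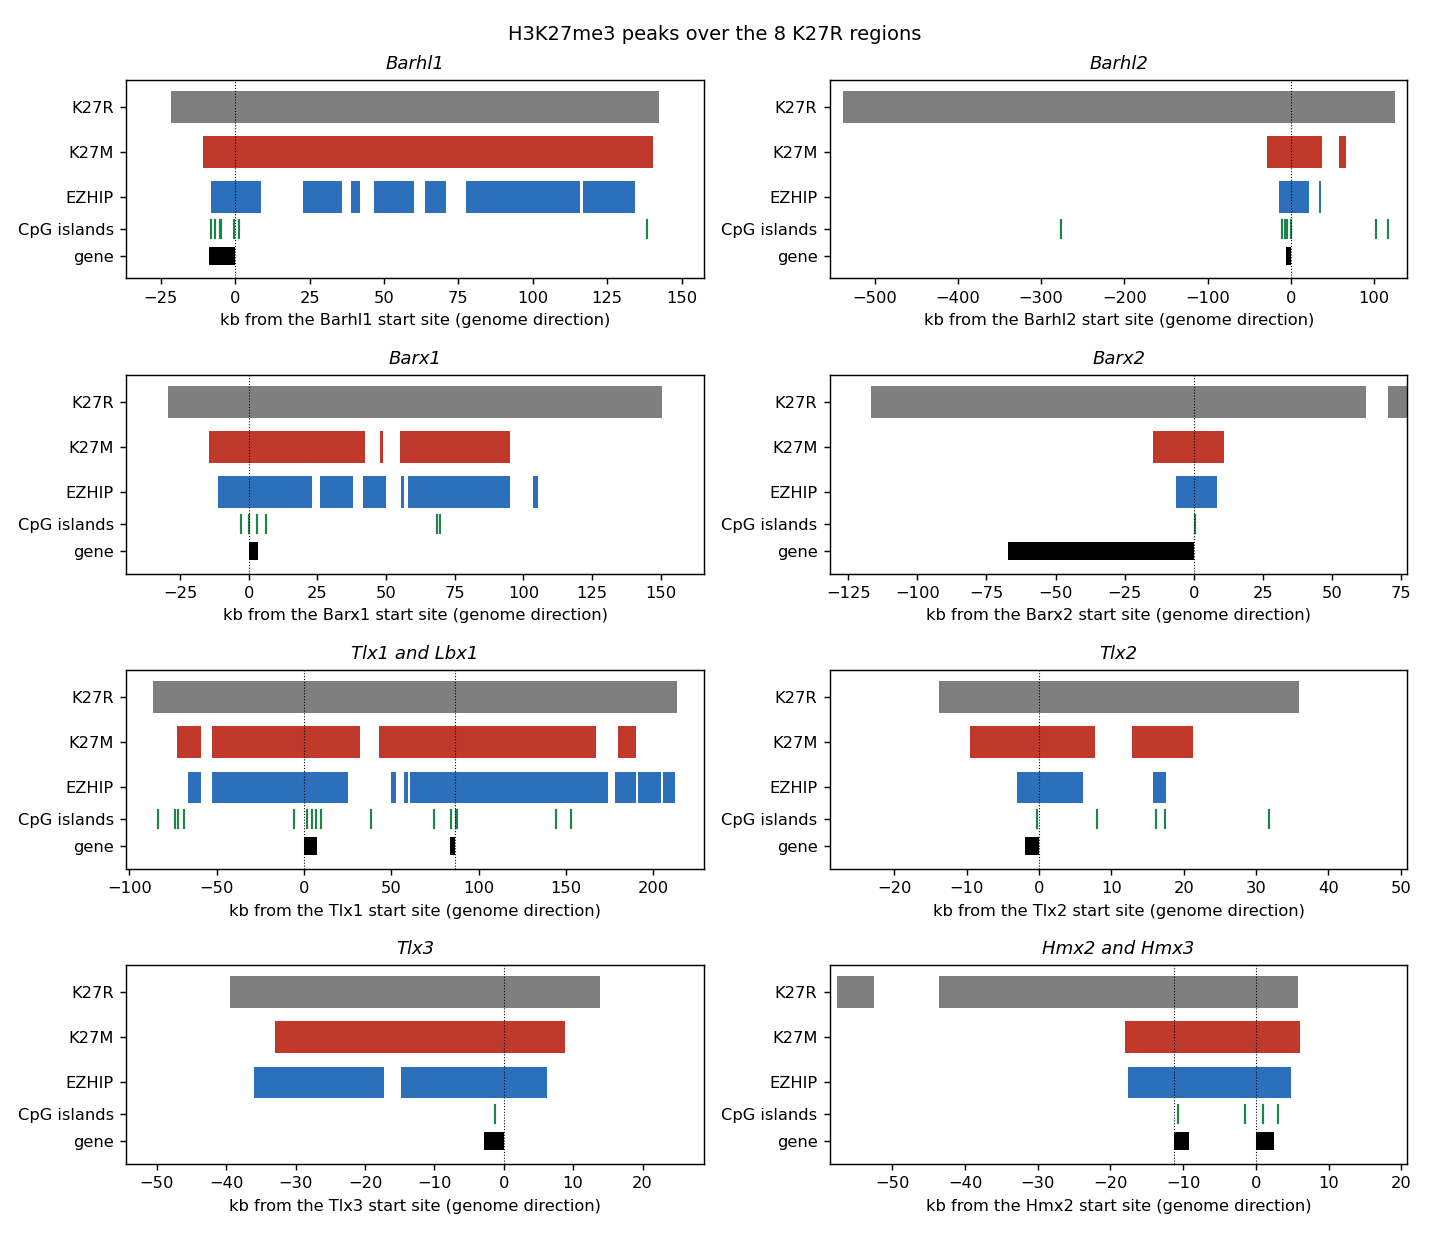
Peaks of the K27R (grey), K27M (red) and EZHIP (blue) lists over the 8 K27R regions, with CpG islands (green ticks) and gene bodies (black). Each x axis is the distance in kb from the start site of the first gene named, in genome direction, dotted lines are start sites, and each panel has its own scale. Single K27M blocks face several EZHIP blocks at Barhl1 and Barx1, while at Barhl2 and Barx2 short blocks lie around the start site within a long K27R block.

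Tlx1, needed for the spleen to form, and Lbx1, a gene of migrating limb muscle precursors and of dorsal spinal interneurons, share a K27R region of 300.6 kb. Tlx1 (ENSMUSG00000025215.8, chr19:45223726-45231433, plus strand) had a K27M peak of 85.0 kb and an EZHIP peak of 78.0 kb. Lbx1 (ENSMUSG00000025216.8, chr19:45307178-45310301, minus strand) had one of 124.2 kb in K27M and of 113.4 kb in EZHIP. The Lbx1 peak of the EZHIP list was wider than that at 99.5% of the genes in all 3 lists, and the Tlx1 peak wider than that at 98.6%. Here the lists were nearly equal. K27M covered 77.6% of the region and EZHIP 78.4%, the one region of the 8 where EZHIP covered more. Within 50 kb, however, K27M was ahead for both genes, with 89.2 against 75.4 kb for Tlx1 and 93.7 against 80.7 kb for Lbx1. The difference lies upstream of Lbx1, where the EZHIP peak reached 87.5 kb and the K27M peak 80.5 kb from the start site, and where EZHIP peaks of 12.8 kb and 7.0 kb had no K27M peak. At the 9 other genes the EZHIP peak at the start site lay wholly inside the K27M peak.

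Tlx2, which acts in the enteric nervous system, and Tlx3, which sets the glutamatergic fate of sensory and dorsal horn neurons, had narrower domains. Tlx2 (ENSMUSG00000068327.3, chr6:83018311-83020287, minus strand) had peaks of 49.8 kb, 17.2 kb and 9.2 kb in the K27R, K27M and EZHIP lists, the narrowest of the set in K27M and in EZHIP. Its covered length within 50 kb in the EZHIP list, 11 kb, was the only one below the median of the genes in all 3 lists. K27M covered 51.4% of its region and EZHIP 22.1%. Tlx3 (ENSMUSG00000040610.6, chr11:33100752-33103588, minus strand) had a K27R peak of 53.2 kb, about as wide as that of Tlx2. K27M nevertheless covered 78.6% of it and EZHIP 74.8%. The EZHIP list divided the Tlx3 domain into peaks of 21.0 and 18.8 kb where the K27M list had a single peak of 41.8 kb.

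Hmx2 and Hmx3, which act together in the vestibular inner ear and the hypothalamus, share one peak in each list. Hmx2 (ENSMUSG00000050100.6, chr7:138697576-138700096, plus strand) and Hmx3 (ENSMUSG00000040148.5, chr7:138686381-138688439, plus strand) had a K27R peak of 49.4 kb, a K27M peak of 24.0 kb and an EZHIP peak of 22.4 kb. The ratio of the K27M to the EZHIP width was 1.07, the nearest to 1 among the peaks as deposited, while after merging Tlx3 (0.991) and Barx1 (0.942) were nearer to 1. The K27M peak ended 0.2 kb beyond the K27R peak, a single bin, and the EZHIP peak lay wholly inside the K27R peak. All 4 islands of the region were inside both the K27M and the EZHIP peak.

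Across the 10 genes, the K27M peak reached a median of 16.3 kb upstream and 22.9 kb downstream of the start site, and the EZHIP peak 9.99 kb upstream and 14.7 kb downstream. The peak reached farther upstream than downstream at 5 of 10 genes in K27M and at 7 of 10 in EZHIP, a count not made over other genes. All 10 genes were covered from 6 kb upstream to 6 kb downstream in K27M, and from 6 kb upstream to 3 kb downstream in EZHIP. At 20 kb on either side, 50% of the genes still lay in a K27M peak. In the EZHIP list 30% did at 20 kb upstream and 40% at 20 kb downstream. Of the other genes with the start site in a K27R peak, 29.8% were in a K27M and 25.5% in an EZHIP peak at the start site itself, and 8.58% and 6.87% at 20 kb upstream.

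**Figure D4:**
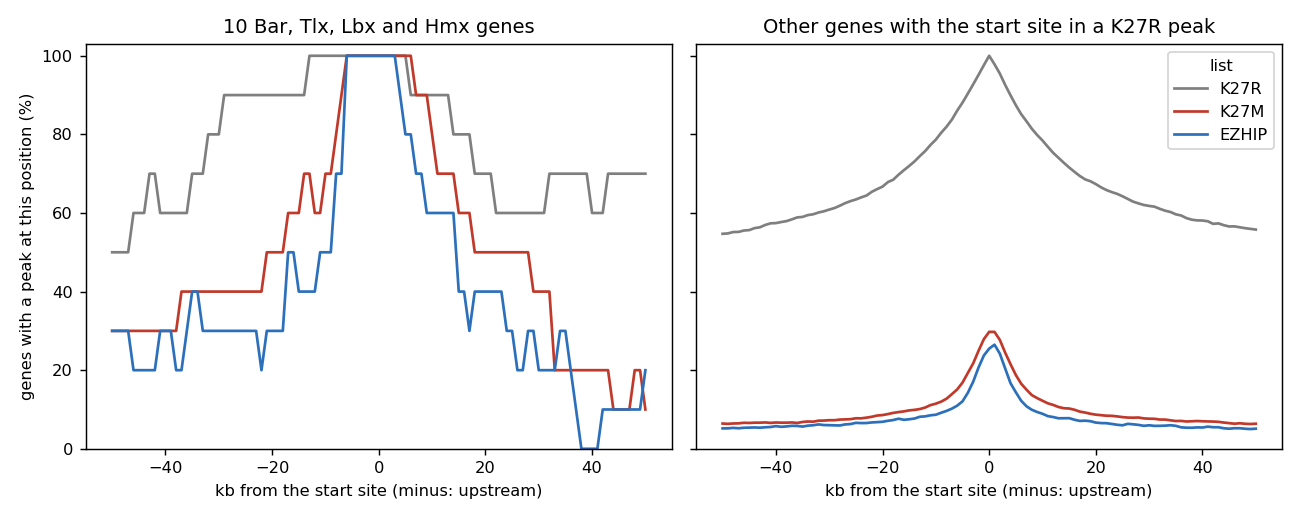
Percent of genes with a peak at each position from 50 kb upstream to 50 kb downstream of the start site, in steps of 1 kb, for the 10 Bar, Tlx, Lbx and Hmx genes (left) and for other genes with the start site in a K27R peak (right). The 10 genes hold a plateau at 100% in all 3 lists around the start site, wider in K27M (6 kb on each side) than in EZHIP (6 kb upstream and 3 kb downstream); the other genes are at 29.8% in K27M and 25.5% in EZHIP at the start site.

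The 8 K27R regions that hold the 10 genes sum to 1639.8 kb. K27M peaks covered 674.0 kb of this (41.1%) and EZHIP peaks 566.6 kb (34.6%), of which 526.6 kb lay in both. Only 40 kb (2.44%) were in EZHIP peaks alone and 147.4 kb (8.99%) in K27M peaks alone, while 925.8 kb (56.5%) lay in neither. Of the EZHIP length in these regions, 92.9% lay in K27M peaks, and 78.1% of the K27M length lay in EZHIP peaks. Over all 1680 K27R regions with peaks of both lists, most of the length in each list was shared as well. There 27.2 Mb lay in both lists, 20.2 Mb in K27M peaks alone and 6.67 Mb in EZHIP peaks alone. The median share of a region was 53.0% in K27M and 49.0% in EZHIP, against 15.6% and 12.9% over the 1680 K27R regions with peaks of both lists. The regions were also wider, with a median of 171.5 against 94.0 kb. K27M had 15 peaks in the regions and EZHIP 29. After merging of peaks up to 10 kb apart, each list had 11.

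Peaks away from the start sites made up much of the EZHIP count. Of the 29 EZHIP peaks, 9 lay at start sites, and 20, with a median width of 7.9 kb, did not. Of the 15 K27M peaks, 9 lay at start sites and 6, with a median width of 9.4 kb, did not. A CpG island was found in all 9 peaks at start sites in each list, in 3 of the 6 K27M peaks elsewhere and in 2 of the 20 EZHIP peaks elsewhere. The peaks at start sites held 592.8 kb of K27M and 346.0 kb of EZHIP length, and those elsewhere 81.4 and 220.6 kb. This split depends on where a list breaks a domain, with shortest gaps of 5.2 kb in K27M and 1.2 kb in EZHIP. At Barhl1, 6 EZHIP peaks without an island count as elsewhere. They lie inside the single K27M peak of 151.4 kb, which counts as at the start site.

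A CpG island lay within 500 bp of the start site for 9 of the 10 genes, against 52.4% of all protein-coding genes. The exception was Tlx1, whose nearest island is 1340 bp from the annotated start. The RefSeq start of Tlx1, used for its promoter above, lies 1479 bp downstream of that start and inside this island. Of the island nearest to the start site, the length ran over the 9 genes from 321 bp at Lbx1 to 3882 bp at Tlx3, with a median of 2370 bp against 662 bp for all genes with one. Lbx1 has a further island within 500 bp of its start site, which is 4721 bp long and overlaps the gene. The 8 regions hold 47 islands. Of these, 36 overlapped both K27M and EZHIP peaks, 4 K27M peaks alone, 0 EZHIP peaks alone and 7 neither. Any overlap counted, so an island may lie only partly in a peak. This is 6.84 islands per 100 kb of sequence in both lists and 0.756 per 100 kb in neither, where the 1680 regions with peaks of both lists had 8.41 and 0.631. Of the 3950 islands in those 1680 regions, 58.0% overlapped both lists, 8.76% K27M alone, 1.97% EZHIP alone and 31.3% neither.

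Bins of 200 bp in both K27M and EZHIP peaks had a mean of 3.67 CG dinucleotides, those in K27M peaks alone 2.73, those in EZHIP peaks alone 2.16, and those in the K27R peak only 2.15. Bins with at least 10 CG dinucleotides made up 8.01% of the bins in both lists and 1.08% of those in neither. The mean was higher in both lists than in neither in 7 of the 8 regions. The largest means were 7.04 at Tlx2 and 6.61 at Hmx2 and Hmx3, where the K27M and EZHIP peaks are narrow. Barx2, also with narrow peaks of 25.8 kb in K27M and 14.8 kb in EZHIP, had 4.18. The exception was the region of Tlx1 and Lbx1, with 3.26 in both lists and 3.35 in neither, and there the peaks covered most of the region. Peaks also covered most of the Tlx3 region, with 4.37 in both lists and 1.69 in neither, and of the Barhl1 region. Barhl1, with 3.05 against 1.95, had the lowest mean in both lists.

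**Figure D5:**
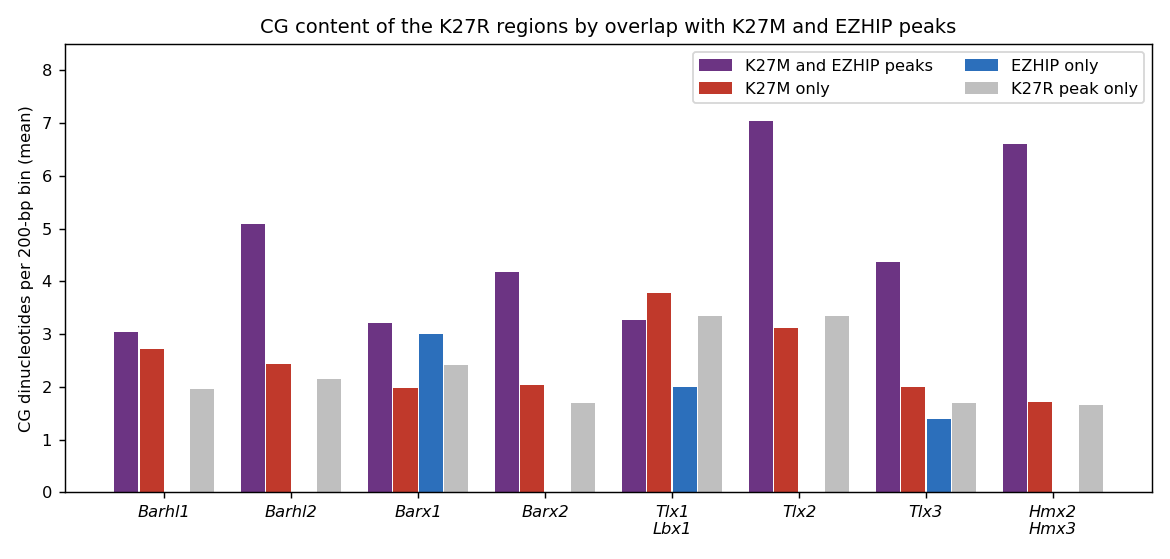
Mean number of CG dinucleotides per 200-bp bin in each of the 8 K27R regions, for bins inside both K27M and EZHIP peaks, inside one of them, or inside the K27R peak only (bars start at 0, a missing bar means no such bin). Bins in both lists stand highest at Tlx2 (7.04) and at Hmx2 and Hmx3 (6.61), and only at Tlx1 and Lbx1 do they stand below the bins in neither (3.26 against 3.35).

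The start sites of 6 other protein-coding genes lie in the same K27R regions, 2 of them in a K27M peak and 1 in an EZHIP peak. Lbx2, the paralog of Lbx1 that lies beside Tlx2, was in both, with a K27M peak of 8.4 kb and an EZHIP peak of 1.8 kb. The start site of 1700101E01Rik lay in the wide K27M peak of Barhl1 and 4.18 kb from the nearest EZHIP peak. The start site of Pcgf1, which encodes a PRC1 subunit and stands between Tlx2 and Lbx2, was in neither, although a K27M peak came within 0.379 kb and a CpG island lies within 500 bp of its start. Kazald1 (1.27 kb from K27M and 7.47 kb from EZHIP peaks), Dqx1 (2.96 and 9.36 kb) and Ccdc142 (10.0 and 13.8 kb) were in neither as well. These counts are of start sites, and K27M peaks overlapped parts of Kazald1 and Dqx1 farther along the gene.

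Other NK-like and related homeobox genes were looked at from a list of 15, chosen for kinship. Of these, 12 had the start site in a K27R peak, 11 in a K27M peak and 9 in an EZHIP peak, and all 9 were also in K27M. Dbx2 and Hhex were in a K27M peak only. For Dbx2, a gene of spinal cord progenitors, the K27M peak was 23.2 kb wide and the nearest EZHIP peak 1.39 kb away. For Hhex, a gene of liver and thyroid primordia, the K27M peak was 2.6 kb wide and the nearest EZHIP peak 113.2 kb away. Hlx, Emx2 and Nanog had no K27R peak at the start site. Within 50 kb of their start sites, K27R peaks covered a median of 100 kb, K27M peaks 33.4 kb and EZHIP peaks 11 kb.

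Genes that act with Lbx1, Tlx1, Tlx3 or Barhl1 in dorsal neural tube and sensory neurons formed a second list of 15. In this list 14 genes had the start site in a K27R peak, 13 in a K27M peak and 13 in an EZHIP peak, with 12 in both. The only gene outside K27R peaks was Lhx9, a LIM homeobox gene. Pax3, which marks dorsal neural tube and muscle precursors, was in a K27M peak of 38.6 kb and 112.7 kb from the nearest EZHIP peak. Lmx1b, which acts in dorsal horn and limb, showed the opposite, with an EZHIP peak of 20.6 kb and the nearest K27M peak 96.2 kb away. None of the 10 Bar, Tlx, Lbx and Hmx genes was in a K27M peak alone or an EZHIP peak alone. Being in one alone was also uncommon over all genes. Of the 6735 genes with the start site in a K27R peak, 2011 were in a K27M peak, 1724 in an EZHIP peak and 1476 in both. Around the start sites of the 15 genes of this second list the median covered length was 83.9 kb in the K27R list, 38.6 kb in the K27M list and 20.6 kb in the EZHIP list.

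The genes most like the 10 were sought by the percent of the 20 kb around the start site that each list covers, as the distance from the median of the 10 genes (100% in K27R, 100% in K27M and 83.5% in EZHIP) over 21359 genes and 3 libraries. The nearest were Gm5607, Btnl2, Pou4f3, Pou4f1 and Bcan, with 100% in K27R and K27M and between 83.0% and 84.0% in EZHIP. Pou4f1 and Pou4f3 are POU homeobox genes of sensory neurons and inner ear hair cells, Btnl2 is a butyrophilin-like gene of the immune system, and Bcan encodes a brain proteoglycan. The likeness is in these 3 percentages only.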

How the data were processed

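Peak lists of 3 H3K27me3 ChIP-Seq libraries were used, grouped by sample title, and 2 libraries of the series were not analysed here. Per the study's methods, crosslinked chromatin was cut with MNase, and reads were aligned with bowtie1 (Bowtie 1.0.0 and deepTools in the submitters' processing notes) to mm9 and a second genome. The authors called broad peaks with MOSAiCS-HMM. Whether scaling to the second genome entered the calls is not given in the sources used here. The deposited lists hold positions of peaks on a 200-bp grid with no height, score, signal or p-value. Replicates were absent, so values are described without a test.

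Peaks were read against GENCODE vM1 and the mm9 sequence. CpG islands were found by scoring 17 for each CG and -1 for other bases, and segments over 200 bp were kept if the CpG ratio (observed to expected) passed 0.6 and G+C reached 50%, without masking of repeats. Interval and island code was tested on simulated data. Neighbours were named when their start site lay in the same K27R region, list genes when K27M and EZHIP differed at the start site, and the 5 genes most alike by Euclidean distance, autosomal and at least 200 kb from the 10 genes. The lists' genes outside K27R peaks, Lbx2, Pdgfra and Zfp644 were named to complete a count. The 10 genes and the gene lists were chosen with earlier results of these data known. Alternatives were other peak widths, merging, windows, start sites, distances and island lengths. Python 3.11.15, numpy 2.4.6, pandas 2.3.3, numba 0.67.0 and matplotlib 3.10.9 were used.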

Additional observations from a re-analysis of the deposited data

How the results depend on the processing

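The 13 results were start sites in peaks, gene bodies, covered lengths, the K27M to EZHIP ratio and islands at start sites. Across 66 alternatives, 63 stayed within 1.5-fold of the main value. A reversal could be scored only for the K27M to EZHIP ratio, and 0 were. Some alternatives could not have moved a result. As all 10 start sites lie in peaks, merging peaks or allowing a distance could not lower that count. The other 3 of the 66 alternatives concern the window. The median share covered was 50% in K27M and 37.6% in EZHIP within 50 kb of the start site, 57.8% in EZHIP within 20 kb, and 100% in K27M and 83.5% in EZHIP within 10 kb. These windows are nested, and all 10 start sites lie in a peak. With islands of at least 500 bp, an island lay in the peak at the start site for 9 of 10 genes in each list. Which list had the wider peak at Barx1, Tlx3 and Lbx1 changed with merging of peaks, a comparison outside the 13 results. Marker Spi1 was not found among the annotated genes. No paired analysis was possible because each group has 1 library and no test was made. Depth is unknown, and a peak's absence from a list does not show that the mark was absent.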
